A study of Mus musculus with 2 samples.

Results

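The serotonin receptor genes are the 10 genes Htr1a, Htr1b, Htr1d, Htr1f, Htr2a, Htr2c, Htr3a, Htr4, Htr5a and Htr7, taken by gene name from the non-control probes of 2 expression arrays that carry 37324 distinct gene names in all. They were chosen by their log2 differences between these 2 arrays, which were already known, so those differences are a description and are supported by no test. The arrays also carry Htr2b, Htr3b, Htr5b and Htr6, which were not chosen and are given for completeness. Total RNA came from the brain of C57BL/6J mice at postnatal day 10, from 1 sample of genotype GPHR F/F;Nes and 1 littermate control of genotype GPHR F/F. Both share the allele written GPHR F/F, and the labels do not spell out Nes, the driver, the cells it acts in or the number of animals behind a sample. GPHR is the Golgi pH regulator, a membrane channel for anions. The labels name no brain region. Neurons, astrocytes and oligodendrocytes were all represented, since 12 of 12 general neuronal markers, 7 of 7 astrocyte markers and 9 of 9 oligodendrocyte lineage markers were well above background on both arrays.

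Serotonin is released in the brain mainly by neurons of the raphe nuclei, whose axons reach almost every region. Its receptors fall into families by the signal they pass on. Htr1 and Htr5 receptors couple to inhibitory G proteins that lower cyclic AMP, Htr2 receptors to Gq and phospholipase C, and Htr4, Htr6 and Htr7 to Gs, which raises cyclic AMP. Htr3 receptors are the exception, ion channels opened directly by serotonin. Htr2c is known for its high expression in choroid plexus epithelium as well as in neurons, and its RNA is edited by adenosine deaminases.

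Each gene was read by 1 to 3 probes of 60 bases, each printed as 1 spot, so no probe had a replicate on an array. Of the 16 probes, 10 had signal well above background on both arrays, 3 on 1 array and 3 on neither. The sequences of Htr2c, Htr7 and Htr1b are shown because the probes of these genes gave unlike readings and the results turn on which stretch of the transcript was read. Positions are those of the array files on mm9. Which exon or untranslated region each probe falls in was not analysed here. The Htr2c probe with signal lies at chrX:143631655-143631714 on the plus strand, 119797 bp downstream of a silent probe at chrX:143511858-143511917. The Htr7 probes lie on the minus strand at chr19:36033339-36033398 (called downstream here), chr19:36034764-36034823 (middle) and chr19:36038872-36038931 (upstream). The downstream and middle probes are 1425 bp apart and were designed to the reference mRNA, whereas the upstream one, 4108 bp from the middle probe, was designed to a predicted transcript variant. The Htr1b probe with signal, at chr9:81522512-81522571 on the minus strand, is 2503 bp from a silent one at chr9:81525015-81525074. All are printed 5′ to 3′ as the array files give them, in lower case throughout because no stretch within them is singled out.
Htr2c with signal: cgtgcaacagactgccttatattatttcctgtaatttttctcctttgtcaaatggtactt
Htr2c silent: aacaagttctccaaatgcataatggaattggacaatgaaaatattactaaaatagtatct
Htr7 downstream: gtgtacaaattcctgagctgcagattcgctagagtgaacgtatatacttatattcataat
Htr7 middle: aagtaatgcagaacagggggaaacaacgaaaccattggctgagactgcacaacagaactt
Htr7 upstream: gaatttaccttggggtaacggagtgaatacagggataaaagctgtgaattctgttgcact
Htr1b with signal: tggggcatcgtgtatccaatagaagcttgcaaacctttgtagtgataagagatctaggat
Htr1b silent: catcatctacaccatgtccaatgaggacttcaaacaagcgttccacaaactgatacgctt

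Differences are given as log2 values, the GPHR F/F;Nes array less the control array, so a negative value means a lower level in GPHR F/F;Nes. Each array was first set to the 75th percentile of its probe signals (259.5 units for GPHR F/F, 173 for GPHR F/F;Nes). A signal in units is therefore comparable between the arrays only after that step. Errors after ± come from the scanner software and leave out differences between animals. With 1 array per genotype no test was possible, and the number of arrays limits the precision of every value. In RNA from whole tissue, fewer cells of a type and less RNA per cell cannot be told apart. The arrays shared 1 slide and 1 scan. The arrays also differed in sex-linked RNA: Xist, the RNA that coats the inactive X in females, was at least 55.8-fold higher in GPHR F/F;Nes. On the Y chromosome, Eif2s3y was at least 38.4-fold higher in the control, Ddx3y at least 10.9-fold and Uty at least 10.6-fold, and 4 of 6 Kdm5d probes had signal in the control alone, the brightest at least 25.7-fold higher there. Of the other Kdm5d probes, 1 had signal on neither array and 1 on both, at 0.39 ± 0.20. Genotype and sex therefore cannot be told apart.

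Of the 10 receptor genes, 8 were measured on both arrays. Htr2c and Htr7 were more than 2-fold lower in GPHR F/F;Nes, none was 2-fold higher, and 6 of the 8 lay below 0, with a median of -0.39. Among all 24112 measured genes, 1.37% were at least 2-fold lower, 7.93% at least 2-fold higher and 43.1% below 0, with a median of 0.07. Among the 15269 genes between the lowest and the highest mean level of the 8 receptor genes, 1.57% were at least 2-fold lower and 43.2% below 0. Because the rule used this contrast, nothing is read from the receptor counts against these shares. The 8 had to be above background on both arrays to be counted, which Htr1d and Htr5a were not.

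**Figure D1:**
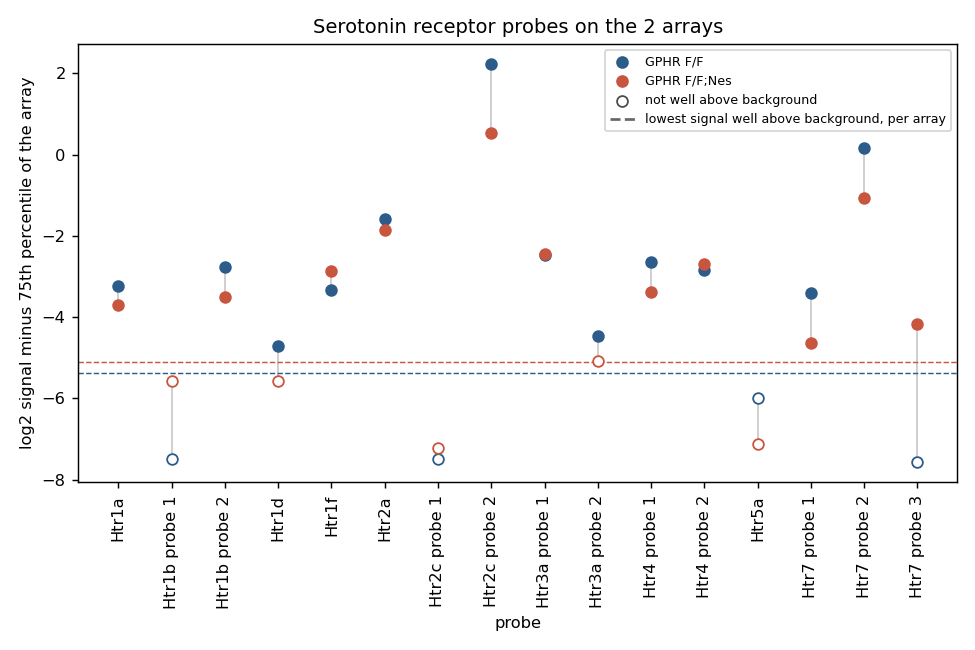
Normalized log2 signal (vertical axis, relative to the 75th percentile of each array) of the 16 probes of the 10 serotonin receptor genes (horizontal axis), with 1 point per array and no error bars. Filled points are well above background, open points are not, and dashed lines mark the lowest signal well above background on each array. Probes are numbered within a gene: Htr2c probe 2 is the one with signal, and Htr7 probes 1, 2 and 3 are the middle, downstream and upstream ones. The largest gap among filled pairs is that of Htr2c probe 2, and only heights of 1 probe may be compared, not heights of different probes.

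Htr2c, the Gq-coupled receptor of choroid plexus and neurons, had the largest difference of the family. Its signal was 1219 units on the control array and 251 units in GPHR F/F;Nes, far above background on both arrays. After scaling, the difference was -1.70 ± 0.20, a 3.25-fold lower level in GPHR F/F;Nes. Among the 1076 other genes within 0.25 log2 units of its mean level, the median was -0.09 (SD 0.48), and 5 were lower than Htr2c. In the whole set, 46 of the 24112 genes were lower. The silent Htr2c probe read 1.45 and 1.17 units, stand-in values for spots not above background, and so gave no difference. Htr2c lies on the X chromosome, of whose 947 measured genes 1.37% were at least 2-fold lower and 45.1% below 0. These shares are like those of all genes, but they do not bear on a single gene. In the Htr2c value genotype and sex cannot be told apart.

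The choroid plexus markers stood on the opposite side of Htr2c. Of 14 markers, 11 were measured, 7 were at least 2-fold higher in GPHR F/F;Nes, none was 2-fold lower and 10 were above 0. Their median was 1.34. Ttr, the transthyretin that this epithelium secretes, stood at 5.35 ± 0.22, the coagulation factor F5 at 1.66 ± 0.36 and the folate receptor Folr1 at 1.43 ± 0.15. Clic6, with signal only in GPHR F/F;Nes, was at least 4.54-fold higher, and Sostdc1 stood at -0.52 ± 0.20. Kl and Slc4a5 were well above background on neither array. The part of choroid plexus content in the Htr2c value was not tested.

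Htr2a, the other measured Gq-coupled receptor and the one of cortical pyramidal cells, differed much less. Its signal was 85.8 units on the control array and 48.2 units in GPHR F/F;Nes, a difference of -0.25 ± 0.21. Of 1647 genes of like level, 18.2% were lower. The difference was thus close to the scanner error, and it was not shown to differ from 0. Htr2b, the third member of this subfamily, had 2 probes, neither well above background on either array.

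Htr7, a Gs-coupled receptor known from thalamus, hypothalamus and hippocampus, gave readings in both directions. The downstream probe read 288 units on the control array and 82.4 units in GPHR F/F;Nes, a difference of -1.23 ± 0.21. The middle probe read 24.5 units and then 6.95 units, a difference of -1.24 ± 0.32. These probes thus gave nearly the same difference, 0.01 apart, although the middle one was close to background in GPHR F/F;Nes. That gap is far smaller than the scanner errors of both probes, so nothing is read from how small it was. For comparison, the median gap over 5038 genes with exactly 2 measured probes was 0.22. Their mean put Htr7 at -1.23 ± 0.19, a 2.35-fold lower level, and 11 of 1688 genes of like level were lower. The upstream probe went the other way. It read a stand-in value of 1.36 units on the control array and 9.68 units in GPHR F/F;Nes, where alone it was well above background. Against the lowest signal well above background in the control (6.28 units), it was at least 2.31-fold higher in GPHR F/F;Nes. That bound was 1.91-fold under median centring of the arrays and 1.19-fold after scaling to spike-in RNAs. Any unlike change of Htr7 transcripts rests on this single dim spot.

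Htr4, another Gs-coupled receptor, had probes that did not match. The first read 41.7 units on the control array and 16.7 units in GPHR F/F;Nes, a difference of -0.74 ± 0.23. The second read 36.0 and 26.7 units, a difference of 0.15 ± 0.22. Their mean was -0.29 ± 0.16 with an SD of 0.63 between the probes, so the gene has no settled direction. The gap of 0.89 was exceeded by 8.71% of the genes with 2 measured probes. Htr6, which shares the coupling, was near background at 12.9 and 8.36 units and stood at -0.05 ± 0.34.

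**Figure D2:**
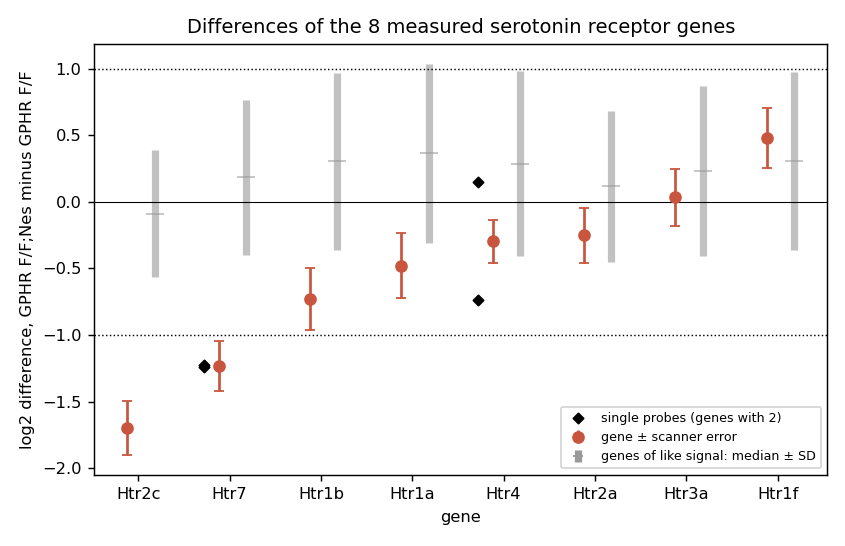
Log2 difference (negative where GPHR F/F;Nes was lower, vertical axis) of the 8 serotonin receptor genes measured on both arrays (horizontal axis). Red points are genes with the scanner error, black diamonds the single probes of Htr7 and Htr4, and grey bars the median ± SD of genes within 0.25 log2 units of the same level. Dotted lines mark 2-fold. Htr2c at -1.70 and Htr7 at -1.23 lie below the lower dotted line, and the 2 Htr4 probes lie on opposite sides of 0.

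The inhibitory Htr1 receptors were dim and did not share a direction. Htr1b, a terminal autoreceptor also made by striatal neurons, read 38.2 units on the control array and 15.4 units in GPHR F/F;Nes, a difference of -0.73 ± 0.23 (1.66-fold lower). Of 1680 genes of like level, 4.05% were lower. Its silent probe, the one designed to the reference mRNA, read 1.44 and 3.64 units and was well above background on neither array. The Htr1b probe with signal was designed to an Ensembl transcript, so the difference is not a reading of the reference-mRNA probe. Htr1a, the autoreceptor of serotonergic cell bodies and a receptor of hippocampal neurons, read 27.6 units on the control array and 13.2 units in GPHR F/F;Nes. Its difference was -0.48 ± 0.24, and 7.32% of 1557 genes of like level were lower. Both values lay more than the scanner error below 0, but less than 2-fold. Genes this dim had a positive median difference, 0.30 around Htr1b and 0.37 around Htr1a, so against genes of like level the gaps were -1.03 and -0.84.

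Htr1f, also inhibitory, was the receptor gene with the highest difference. It read 25.6 units on the control array and 23.8 units in GPHR F/F;Nes, so the raw signals were nearly equal, and the scaled difference was 0.48 ± 0.23. The median of 1686 genes of like level was 0.31, and 61.7% of them were lower than Htr1f. Htr1f thus stood 0.17 above genes of like level. Htr1d had signal in the control alone, at 9.92 units against 3.66 units in GPHR F/F;Nes, and was at least 1.31-fold higher in the control. Htr5a, which couples to the same kind of G protein, read 4.08 and 1.25 units and was well above background on neither array. Its relative Htr5b read 8.77 units in the control, where alone it had signal, and was at least 1.16-fold higher there.

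Htr3a, the subunit of the serotonin-gated channel carried by a class of cortical interneurons, had nearly the same scaled level on both arrays. Its brighter probe read 46.7 units on the control array and 32.0 units in GPHR F/F;Nes, a difference of 0.04 ± 0.21. A dimmer probe had signal in the control alone (11.7 against 5.09 units) and was at least 1.53-fold higher there. Of 12 markers of such interneurons, 10 lay below 0 and none differed 2-fold, with a median of -0.43. Sp8 (-0.84 ± 0.20) and Calb2 (-0.80 ± 0.15) were lowest. Lamp5 was highest at 0.87 ± 0.23 on 1 probe, but its other probe had signal in the control alone (37.1 against 1.17 units) and was at least 4.89-fold higher there, so Lamp5 has no settled direction. Htr3b, the partner subunit, was well above background on neither array.

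**Figure D3:**
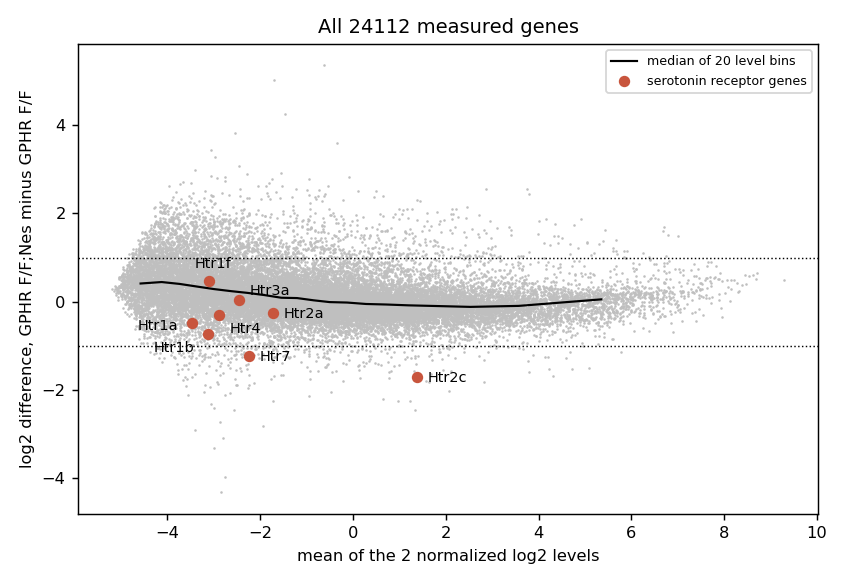
Log2 difference (vertical axis) against the mean of the 2 normalized log2 levels (horizontal axis) for all 24112 measured genes (grey), with the 8 measured serotonin receptor genes in red and the medians of 20 level bins as a black line. Dotted lines mark 2-fold. The black line starts at 0.41 for the dimmest genes, crosses 0 near the middle and returns to 0.05 in the brightest bin, and 7 of the 8 receptor genes lie where it is positive. Htr2c alone of them lies among brighter genes.

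Most measured genes that make, move and break down serotonin differed by less than 2-fold, but the bound of the serotonin transporter Slc6a4 was larger. Of 14, 12 were measured, 9 lay below 0, none was at least 2-fold higher and 1 was at least 2-fold lower, and the median was -0.07. The 1 was Gch1, which starts the synthesis of the cofactor tetrahydrobiopterin, at -1.29 ± 0.21. Tph1 stood at 0.67 ± 0.41, with 2 of its 3 probes not above background, and the transporter Slc29a4 at -0.51 ± 0.20. The genes that define serotonergic neurons were at or near background, apart from Slc6a4 in GPHR F/F;Nes. Tph2, the serotonin-making hydroxylase of the brain, read 3.03 units on the control array and 1.09 units in GPHR F/F;Nes. It was well above background on neither array. Slc6a4, the serotonin transporter, had 1 probe with signal only in GPHR F/F;Nes (18.3 against 7.02 units), where it was at least 3.90-fold higher, and 1 probe with signal on neither. Fev, the transcription factor of these neurons, stood at 0.28 ± 0.35.

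Among 9 transcription factors of serotonergic neurons, 7 were measured, 5 lay above 0 and the median was 0.25. Gata3 was 4.01-fold higher (a log2 difference of 2.003 ± 0.22) and Nkx2-2 stood at -0.53 ± 0.17. Gata2, with signal only in GPHR F/F;Nes, was at least 1.92-fold higher. Gata2 and Gata3 are also expressed outside serotonergic neurons. The share of any cell type in these values was not tested.

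The signalling genes downstream of the receptors were mostly below 0 by small amounts. Of 26 G proteins and effectors, all were measured, 19 lay below 0, 1 was at least 2-fold lower and 1 at least 2-fold higher, with a median of -0.38. The lower of these was Kcnj3, a subunit of the potassium channel that Htr1a opens (-1.43 ± 0.21), and the higher was the adenylyl cyclase Adcy6 (1.59 ± 0.20). The 2 Kcnj3 probes differed in size. The brighter stood at -0.84 ± 0.21, and the dimmer, near background at 5.90 units in GPHR F/F;Nes, at -2.03 ± 0.36. Kcnj3 was thus 2-fold lower only through the dimmer probe. Gnaz, an inhibitory G protein subunit, stood at -0.86 ± 0.20. Of 15 receptor partners and RNA editing enzymes, 13 lay below 0, with a median of -0.27. Rgs4, which shortens signals of Gi and Gq, had a log2 difference of -1.55 ± 0.20, and the arrestin Arrb2 stood at -0.59 ± 0.12. The editing enzyme genes Adarb2, Adarb1 and Adar stood at -0.85 ± 0.20, -0.44 ± 0.12 and -0.27 ± 0.15. Over these 4 lists together, 3 of 60 measured genes were at least 2-fold lower (2 with the brightest probe of a gene) and 43 lay below 0, with a median of -0.24. Of all measured genes, 1.37% were at least 2-fold lower, 7.93% at least 2-fold higher and 43.1% below 0. Genes near the median level of the G protein and effector list had a median of -0.06.

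The other amine receptors were set beside the serotonin receptors as their nearest relatives. Of 23 receptor genes for dopamine, noradrenaline, histamine and acetylcholine, 19 were measured, none differed 2-fold in either direction and 10 lay below 0, with a median of -0.11. The lowest were the alpha-2 adrenoceptor Adra2c (-0.93 ± 0.20), the muscarinic receptor Chrm1 (-0.80 ± 0.14) and the adrenoceptor Adra1b (-0.70 ± 0.20). The 3 Chrm1 probes stood at -1.10, -1.08 and -0.22, so only their mean fell short of 2-fold. With the brightest or the median probe of a gene, 1 of the 19 was at least 2-fold lower, and with median centring 2. The highest was Chrm4 (0.44 ± 0.21). Htr2c and Htr7 lay below all 19, but they were chosen by this contrast, so nothing is read from that order. Htr7 stood at 0.32 with no filter on dim probes. No test of the families against each other could be made with 1 array per genotype.

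Markers of the neurons that carry these receptors were lower to unlike extents, least so those of cortical and hippocampal neurons. Of all measured genes, 1.37% were at least 2-fold lower and 43.1% below 0. Of 9 striatal projection neuron markers, 8 were below 0 and 4 of these at least 2-fold lower. Their median was -0.83. Penk (-2.05 ± 0.17) and Adora2a (-1.67 ± 0.21) had the lowest values, and Drd2 is counted both here and among the amine receptors. All 12 general neuronal markers were below 0 and 3 of these at least 2-fold lower. Their median was -0.30, with the lowest values in the neurofilament genes Nefm (-1.60 ± 0.14), Nefl (-1.14 ± 0.14) and Nefh (-1.12 ± 0.15). Of the 10 cortical and hippocampal markers, 6 lay below 0, 4 above 0 and 1 was at least 2-fold lower. Their median was -0.09, with values from -1.05 ± 0.20 for Nrgn and -0.89 ± 0.20 for Slc17a7 to 0.68 ± 0.16 for Tbr1. Of 8 measured microglia markers, all lay above 0, with a median of 1.12, Trem2 at 2.14 ± 0.23, Tyrobp at 2.08 ± 0.24 and Cx3cr1 at 1.69 ± 0.22. Tmem119 had a bound of at least 4.60-fold higher. The 7 astrocyte markers had a median of 0.29, with Gfap at 0.82 ± 0.14, Aqp4 at 0.58 ± 0.12 and Slc1a3 at 0.48 ± 0.14. The 9 oligodendrocyte lineage markers had a median of 0.08, from -0.88 ± 0.20 for Sox10 and -0.67 ± 0.16 for Pdgfra to 0.77 ± 0.15 for Mag. The part of cell content in the receptor values was not tested.

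**Figure D4:**
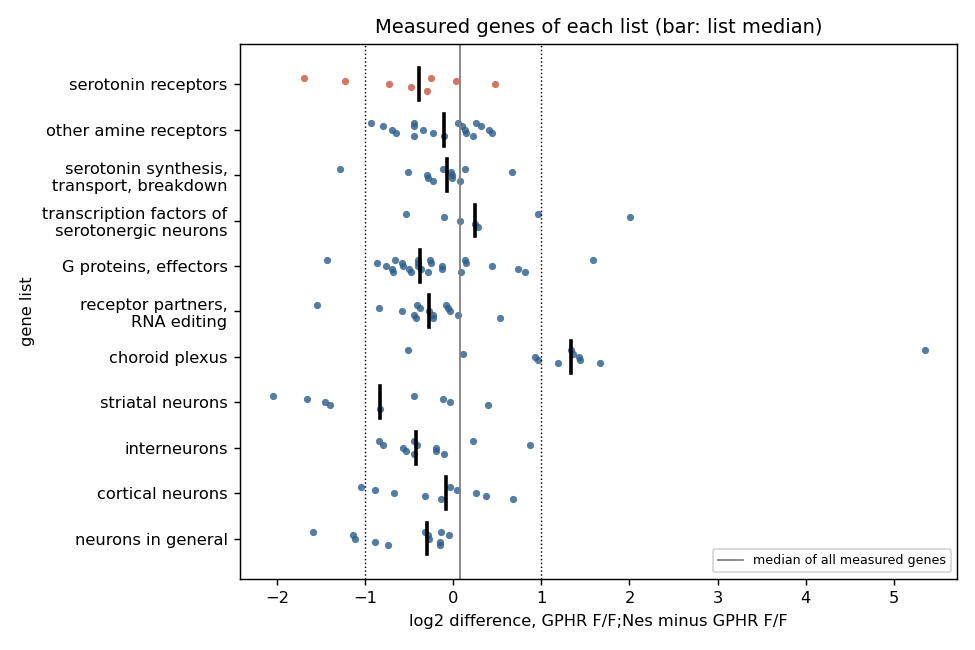
Log2 difference (negative where GPHR F/F;Nes was lower, horizontal axis) of every gene measured on both arrays in 11 gene lists (vertical axis), serotonin receptors in red. Black bars are list medians, the grey line the median of all measured genes (0.07), dotted lines 2-fold, and points are spread vertically only for legibility. Choroid plexus markers lie farthest to the right (median 1.34) and striatal markers farthest to the left (median -0.83), with the serotonin receptors at -0.39.

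The 10 receptor genes lie on 9 chromosomes, with Htr1b and Htr3a both on chromosome 9. RefSeq gave 9 promoter windows of GRCm38.p6 for 8 of the 10 genes (not for Htr3a and Htr4), and the 250 bases before each start were searched on both strands. The GC box GGGCGG was found in 4 of the 9 windows, against 32.7% of all 32851 windows. CCAAT was found in 3, those of Htr1b, Htr2c and 1 of the 2 of Htr1d, against 33.8%. The TATA box TATAAA was in none, against 12.4%. The 2 genes with the largest differences had unlike windows, with 5 CG pairs for Htr2c and 41 for Htr7, against a median of 6 over all windows. A match is a description of letters only.

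Under the other ways of scaling, Htr2c and Htr7 remained the lowest receptor genes and Htr1f the highest, while their distance from 0 moved. Htr2c lay between -1.97 and -1.48, except after scaling to spike-in RNAs, where it stood at -2.65. Htr7 ranged from -1.51 to -0.64 under the same settings and stood at -2.18 with spike-in scaling. The normexp correction gave the smallest size for both, and its offset shrinks differences of dim probes. Htr1f was above 0 in every setting where it had a value, except spike-in scaling (-0.47). Htr3a was above 0 in the main setting and below 0 under median centring (-0.24), quantile normalization (-0.18), loess (-0.13) and normexp (-0.06). Under median centring, the median of all genes moved by -0.28, with quantile normalization by -0.11 and with spike-in scaling by -0.95. Of all genes that differed 2-fold, 85.3% were higher in the main setting, against 56.9% with median centring, 68.4% after quantile normalization, 72.4% after loess and 1.97% after spike-in scaling. In each of these settings, 7 of the 8 receptor genes lay below the median of all genes. Median centring and spike-in scaling shift every gene by the same amount, so that count could not change under them. With the brightest probe of a gene it was 6 of 8, and with a stricter filter on dim probes 3 of 5. The receptor genes were chosen by this contrast, so nothing is read from these counts.

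**Figure D5:**
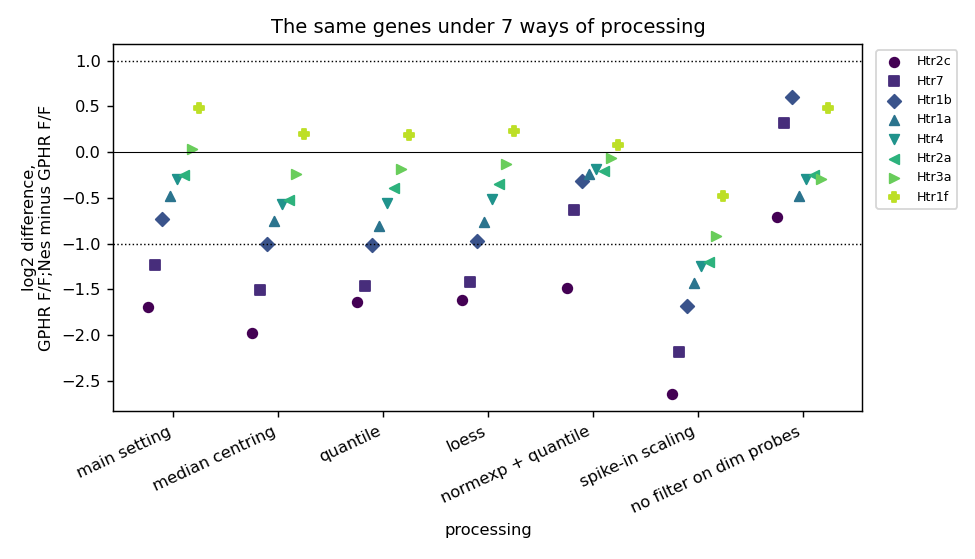
Log2 difference (negative where GPHR F/F;Nes was lower, vertical axis) of the 8 measured serotonin receptor genes under 7 ways of processing (horizontal axis), 1 point per gene and setting. Dotted lines mark 2-fold. Htr2c is the lowest gene in all 7, from -2.65 with spike-in scaling to -0.71 with no filter on dim probes, where Htr1b and Htr7 lie above 0.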

How the data were processed

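Scans of 1-colour Cy3 arrays were read by Agilent Feature Extraction 11.5.1.1, per the submitters' processing notes, with RNA labelled with a low-input method per the labels. The deposited intensity of each spot was background-subtracted and detrended by that software, per the file headers, and raw intensities served 1 alternative. The deposited series table holds log2 values equal, within 0.001 for 99.9% of probes, to the log2 processed intensity plus 1 constant per array (GPHR F/F -8.01, GPHR F/F;Nes -7.43). The sources used here do not say how these constants were set, and the column medians were -3.19 and -2.92.

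Here, spots with outlier flags were dropped (51 per array), log2 values averaged over the spots of a probe, and the 75th percentile over probes subtracted per array. No spot was saturated. A probe was measured when well above background on both arrays (36717 of 56603 probes), and a gene was the mean of its measured probes. A probe with signal on 1 array got a bound against its own signal on the dimmer array or that array's lowest signal called well above background, whichever was higher. Accessions of 32993 probes matched RefSeq (GRCm38.p6), which then gave the gene name, and no receptor probe changed name. The members and lists were chosen with earlier results of these data known. All receptor genes are named, with up to 3 measured genes and 2 bounds of largest size per list, the lead genes Tph2, Slc6a4 and Ttr, sex-linked genes, and a few further list members chosen after their values were seen (Fev, Drd2, Sostdc1, Adarb1, Adar, Chrm4). A few genes under this rule are not reported here. Alternatives were median centring, quantile and loess (span 0.3) normalization, normexp (offset 50), spike-in scaling, the deposited table, other filters on dim probes, the brightest or median probe, kept outlier spots and thresholds of 1.5-fold and 3-fold. The script was tested on simulated data. Python 3.11.15, pandas 2.3.3, numpy 2.4.6 and, in R 4.3.3, limma 3.58.1 were used.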

Additional observations from a re-analysis of the deposited data

How the results depend on the processing

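The median of the 8 receptor genes was -0.66 with each array centred on its median, -0.68 after quantile normalization, -0.64 after loess and -1.34 with spike-in scaling. At least 2-fold lower were 1 (Htr2c) after normexp, 6 with spike-in scaling and 1 (Htr2c) at a 3-fold threshold. With no filter on dim probes, neither Htr2c (-0.71) nor Htr7 (reversed to 0.32) was 2-fold lower and Htr1b stood at 0.60 in place of -0.73. That setting averages in probes not well above background on both arrays. The probes it added for Htr2c and Htr1b were the silent ones. For Htr7 it added the upstream probe, which had signal in GPHR F/F;Nes and a stand-in value in the control. The 1 gene of 10 then counted was Htr5a, which was well above background on neither array.

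Under median centring and spike-in scaling the medians were -0.52 and -1.19 for the other serotonin system genes, -0.38 and -1.06 for the other amine receptors, 1.06 and 0.39 for choroid plexus, -1.11 and -1.79 for striatal neurons, and -0.58 and -1.25 for neurons in general. The amine receptor median was 0.11 with no filter and -0.34 with a stricter one. Normexp gave 0.46 for choroid plexus and -0.62 for striatal neurons, the stricter filter 1.07 and -1.25, and the brightest probe -1.05 for striatal neurons. Median centring and spike-in scaling shift every gene by the same amount, and the filters change which genes have a value. For the other settings the cause was not tested. Under the stricter filter 5 receptor genes had values. Taking the percentile without probes on chromosomes X and Y was added after seeing the data and moved no receptor gene by more than its scanner error.

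No paired analysis was possible because each group holds 1 array and no result comes from a test. The low signal of most receptor probes, below 100 units except for Htr2c and 1 Htr7 probe, limits what these arrays can show.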
